A study of Mus musculus with 24 samples.

Results

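Cell cycle genes were followed in mouse dendritic cells before and after AZD5582. The set comprised 40 genes named by symbol and matched to Ensembl identifiers, all 40 of them found among the 55414 gene lines counted. It held 16 genes of DNA replication (S phase: Mcm2, Mcm3, Mcm4, Mcm5, Mcm6, Mcm7, Gins2, Pcna, Rrm1, Rrm2, Tyms, Cdc6, Cdc45, Cdt1, Uhrf1 and E2f1) and 24 genes of mitosis (Cdk1, Ccna2, Ccnb1, Ccnb2, Plk1, Aurka, Aurkb, Bub1, Bub1b, Cdc20, Cdca3, Cdca8, Cenpe, Cenpf, Kif11, Kif20a, Kif23, Mki67, Nusap1, Prc1, Top2a, Tpx2, Ube2c and Foxm1). All 40 passed the filter on low counts in every model.

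Dendritic cells, which present antigen to T cells, were grown from bone marrow of C57BL/6JRj mice, either wild type or Cas9-EGFP, and which libraries came from which genotype is not stated in the labels. GM cultures grew in GM-CSF alone (20 ng/ml) and were taken at day 8. FL cultures had GM-CSF at the same concentration plus FLT3L, a growth factor of dendritic cell precursors, at 200 ng/ml, and were taken at day 16. The GM cultures comprised the start (t0), 24 h in the solvent DMSO, and 24 h in AZD5582 at 0.1, 0.5 or 1 µM. The FL cultures comprised t0, 24 h in DMSO and 24 h in AZD5582 at 0.05 µM. Each of these 8 groups has 3 libraries. AZD5582 blocks the inhibitor of apoptosis (IAP) family. The protocols in the labels name no sorting step, so each library is the RNA of a whole culture. Dose and culture type differ together, and no dose was given to both.

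Libraries held 27012555 to 85820558 counts on genes. The FL libraries are numbered by culture (91, 94 and 95), while the GM libraries carry 1 culture number with replicates 1 to 3, and whether these came from separate animals is not given, so p-values then measure only the spread between these libraries. Culture 91 lay apart from cultures 94 and 95 after 24 h: on the first principal component of the FL libraries, which held 53.78% of the variance, its DMSO library lay at -87.05 against 45.97 and 28.04, while the t0 libraries lay between 85.76 and 87.87. The counts of FL members called, the medians of the 24 h changes, and the calls of single genes that depend on this culture are therefore also given without its 3 libraries. The share of all genes called was not counted in those fits, so their counts cannot be set against it. Dendritic cell genes (9 of 9 at a mean of at least 1 CPM in every group; CPM is the count of a gene relative to the library's total, scaled by TMM across libraries) summed to 13420 to 15080 CPM at GM t0 and 19600 to 25490 at FL t0. Macrophage genes summed to 20150 to 25490 CPM at GM t0 and 818.3 to 987.3 at FL t0, and all 7 genes of type 1 conventional dendritic cells reached a mean of 1 CPM at FL t0 against 4 of 7 at GM t0. Lyz2 was the largest part of both macrophage sums, at means of 18980 CPM at GM t0 and 588.3 at FL t0. In such bulk RNA, fewer dividing cells and less RNA of a gene per dividing cell cannot be told apart.

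A cell that is to divide first licenses its replication origins, when Cdc6 and Cdt1 load the Mcm2 to Mcm7 helicase, and then copies its DNA with Cdc45, Gins2, the sliding clamp Pcna and nucleotides supplied by ribonucleotide reductase (Rrm1, Rrm2) and thymidylate synthase (Tyms). E2F factors such as E2f1 switch these genes on. Mitosis follows, driven by Cdk1 with its cyclins (Ccna2, Ccnb1, Ccnb2) and by the Polo and Aurora kinases, and the transcription factor Foxm1 and the B-Myb and MuvB proteins turn on its genes late in the cycle. In the bone marrow lineage, precursors of dendritic cells divide and fully matured dendritic cells have largely left the cell cycle.

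The promoters of both classes are shown because textbook elements for cell cycle timing lie in them: E2F sites in S phase genes, and CCAAT boxes with a CHR (cell cycle genes homology region) in mitosis genes. The windows are from RefSeq on GRCm38.p6, from 250 bases before to 50 after the start, 5′ to 3′ along the gene, with the motif matches on either strand in capitals (CCAAT, the CHR as TTTGAA, and E2F as TTTCGCGC, TTTGGCGC or TTTCCCGC). The Uhrf1 window was added after its values were seen, and is the second of its 2 windows in that table.
Cdc6, chr11:98907901-98908200, forward strand: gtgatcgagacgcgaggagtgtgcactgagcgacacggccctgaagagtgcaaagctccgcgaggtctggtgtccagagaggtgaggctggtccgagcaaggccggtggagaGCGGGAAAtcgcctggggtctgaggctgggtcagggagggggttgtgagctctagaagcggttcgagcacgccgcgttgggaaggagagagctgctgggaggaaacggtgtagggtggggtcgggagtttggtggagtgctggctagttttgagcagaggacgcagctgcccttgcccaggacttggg
Uhrf1, chr17:56304063-56304362, forward strand: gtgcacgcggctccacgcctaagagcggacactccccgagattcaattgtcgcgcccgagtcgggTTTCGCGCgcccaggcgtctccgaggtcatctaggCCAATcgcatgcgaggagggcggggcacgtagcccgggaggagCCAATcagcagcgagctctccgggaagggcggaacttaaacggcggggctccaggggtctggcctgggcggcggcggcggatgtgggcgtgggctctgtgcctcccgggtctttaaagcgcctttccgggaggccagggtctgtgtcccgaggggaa
Ccnb2, chr9:70421505-70421804, reverse strand: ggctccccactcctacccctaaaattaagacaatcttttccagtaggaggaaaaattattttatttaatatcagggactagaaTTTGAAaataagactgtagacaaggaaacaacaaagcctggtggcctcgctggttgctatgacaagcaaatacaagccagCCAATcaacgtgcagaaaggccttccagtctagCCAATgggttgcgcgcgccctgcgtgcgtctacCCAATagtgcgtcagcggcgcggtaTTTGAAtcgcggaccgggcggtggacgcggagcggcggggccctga
Plk1, chr7:122159185-122159484, forward strand: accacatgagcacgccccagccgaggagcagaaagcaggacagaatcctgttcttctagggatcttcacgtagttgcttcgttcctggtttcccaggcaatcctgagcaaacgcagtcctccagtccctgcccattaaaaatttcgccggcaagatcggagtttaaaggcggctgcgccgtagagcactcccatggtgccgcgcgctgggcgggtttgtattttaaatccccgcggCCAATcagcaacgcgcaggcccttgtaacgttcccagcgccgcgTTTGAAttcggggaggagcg
The Cdc6 window holds 1 E2F match, the reverse complement of TTTCCCGC. That of Uhrf1 holds 1 E2F match and 2 CCAAT boxes, whereas its first window holds 3 CCAAT boxes and no E2F match. In the Ccnb2 window there are 3 CCAAT boxes and 2 CHR matches, and in that of Plk1 1 of each. Windows were found for 33 of the 40 members. The CHR letters occurred in 15 of 19 mitosis genes and 2 of 14 S phase genes, against 17.89% of the 32851 windows in the table, and CCAAT in 18 of 19 and 10 of 14, against 37.41%. The E2F letters occurred in 7 of 14 S phase genes and 1 of 19 mitosis genes (Cdk1), against 1.84% of all windows. In the 4 windows shown no match overlaps another. A match is a run of letters and not a measured binding site. The windows of E2f1, Tyms and the mitosis member Nusap1 held none of the 3 motifs.

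Over 24 h in DMSO, each of the 40 cell cycle members fell in GM cultures. All 40 members passed the test (16 of 16 S phase and 24 of 24 mitosis; edgeR's quasi-likelihood test, adjusted p under 0.05), where 20.3% of all 16152 genes tested were called lower and 27.2% higher. The median log2 change was -1.92 over the S phase members and -2.89 over the mitosis members, beside 0.087 over all genes. The added day of culture and the DMSO cannot be told apart here. The summed level of the 24 mitosis members went from 2208, 2384 and 2663 CPM in the t0 libraries to 320.0, 397.3 and 260.1 CPM in the DMSO libraries, and that of the 16 S phase members from 1373, 1662 and 1625 to 419.1, 443.0 and 383.8 CPM. No member's t0 and DMSO libraries overlapped, a trait that was not counted over all genes. Summed levels of marker genes of other cells also moved over the same 24 h. The macrophage genes summed to 27670 to 33340 CPM in DMSO, against the t0 range above. Mast cell and basophil genes summed to 41.36 to 58.35 CPM at t0 and 94.3 to 148.7 in DMSO. Stem and progenitor genes summed to 83.8 to 110.6 and 137.3 to 214.1 CPM, and Kit and Gata2 count in both lists. Of their genes, Kit and Sox4 had higher estimates in DMSO, whereas Cd34, Myb, Cpa3 and Hdc had lower ones, against the sums. Type 1 conventional dendritic cell genes summed to 204.0 to 238.3 and 613.3 to 749.7 CPM. Of these, 4 of 7 at t0 and 3 in DMSO reached a mean of 1 CPM. Neutrophil and granulocyte precursor genes summed to 313.1 to 368.5 and 391.3 to 638.1 CPM, with 11 and then 8 of 12 at that mean. A rise of a sum is thus not a rise of its whole list. The part of these cells in the fall was not tested.

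**Figure D1:**
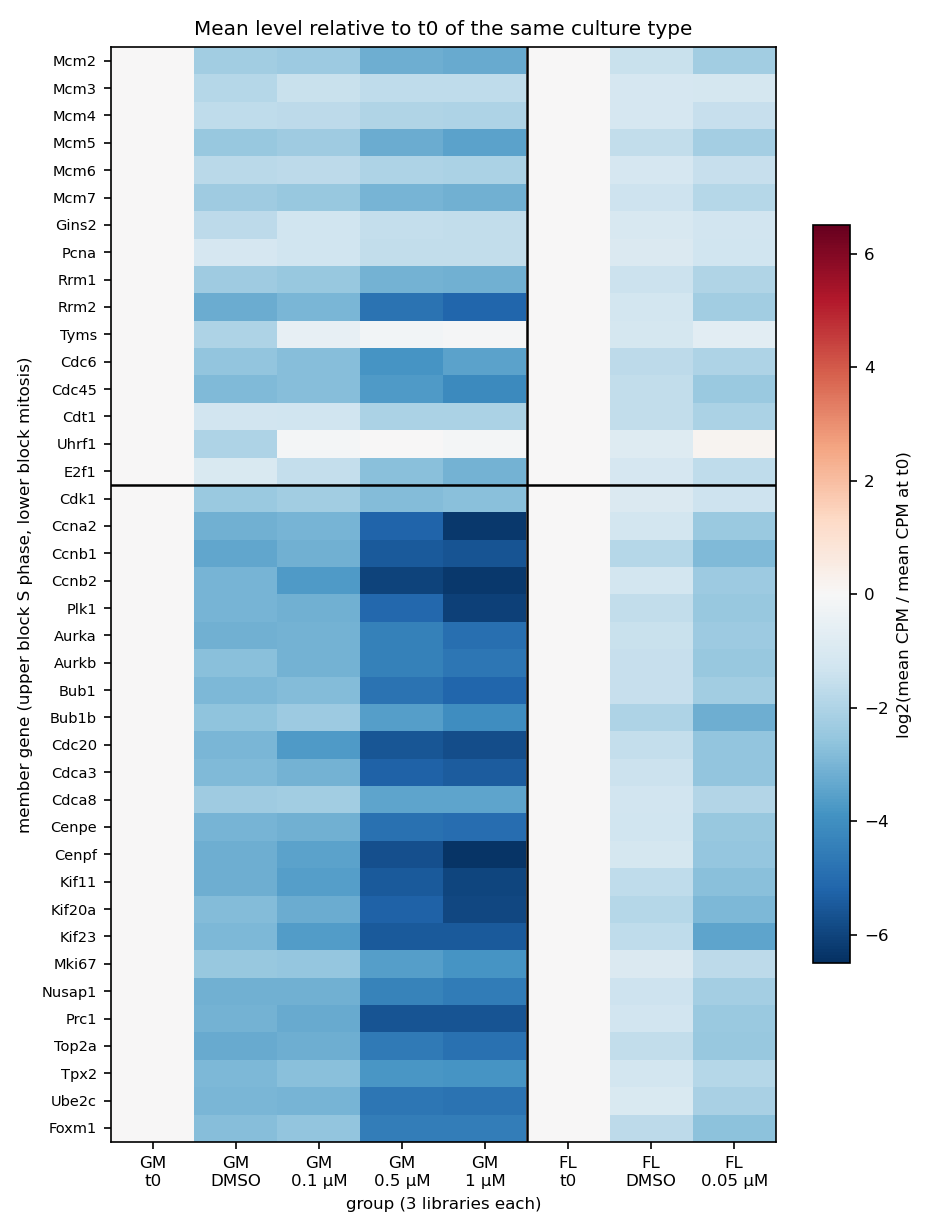
Mean level of each of the 40 members (rows) in the 8 groups (columns, 3 libraries each) as log2 of the ratio to t0 of the same culture type, with S phase genes in the upper block and mitosis genes in the lower. Blue is below t0: in GM cultures the mitosis block darkens from DMSO to 0.5 and 1 µM, with Ccnb2 at 1.3% of t0 at 1 µM, while the rows of Tyms and Uhrf1 are pale again at 94.4% and 92.0% of t0.

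Among the drivers of mitotic entry, Ccnb1, the cyclin that activates Cdk1, stood at 78.4, 89.0 and 84.2 CPM at t0 and at 7.2, 9.27 and 8.04 CPM in DMSO, a log2 change of -3.28 ± 0.29 (SE; adjusted p = 2.05e-07). This was the largest fall among the mitosis members. Cdk1 itself went from 102.8, 106.7 and 108.4 CPM to 21.1, 22.8 and 16.7 (-2.31 ± 0.13). The Aurora kinase gene Aurka went from 46.2, 56.6 and 54.2 CPM to 6.4, 6.74 and 5.05 (-3.03 ± 0.17), and Plk1, the Polo kinase of spindle assembly and mitotic exit, from 54.9, 66.7 and 64.1 to 7.47, 9.14 and 6.2 (-2.94 ± 0.18). For each of these kinases every t0 library lay above every DMSO library. Foxm1, the transcription factor of late cell cycle genes, stood at 43.6, 52.8 and 51.4 CPM at t0 and at 7.44, 8.25 and 5.63 in DMSO (-2.71 ± 0.28).

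Genes of the mitotic apparatus fell alike. Kif11, the motor that separates spindle poles, went from 71.2, 87.3 and 92.3 CPM to 8.3, 11.3 and 7.89 (-3.11 ± 0.26). Top2a, the topoisomerase that untangles sister chromatids, went from 291.9, 327.7 and 380.5 CPM to 35.5, 43.1 and 23.6 (-3.21 ± 0.24). The spindle checkpoint kinase gene Bub1 went from 41.7, 47.3 and 51.8 CPM to 5.86, 8.75 and 4.03 (-2.83 ± 0.27). Ube2c, the ubiquitin-conjugating enzyme that serves the anaphase-promoting complex, went from 87.4, 93.1 and 98.3 CPM to 12.0, 15.1 and 8.62 (-2.88 ± 0.24). Mki67, which encodes the proliferation marker Ki-67, went from 293.2, 254.8 and 392.5 CPM to 56.9, 70.9 and 43.0 (-2.38 ± 0.21). Across the 24 mitosis members the DMSO mean was 9.74% to 20.4% of the t0 mean (median 12.7%), with Cdca8, a subunit of the chromosomal passenger complex, at the upper end and Ccnb1 at the lower.

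The S phase members were more spread, at 10.6% to 50.2% of t0 (median 24.95%). Rrm2, the cell cycle-regulated subunit of ribonucleotide reductase, fell most, from 151.1, 177.6 and 177.8 CPM to 17.25, 22.2 and 14.3 (-3.16 ± 0.20). E2f1 fell least, from 36.2, 42.5 and 39.5 CPM to 20.6, 20.7 and 18.1 (-0.92 ± 0.11, adjusted p = 1.84e-06). It was the only one of the 40 not called with all 24 libraries in one model (-0.91, adjusted p = 0.0679). Pcna went from 214.5, 216.2 and 222.0 CPM to 102.9, 96.9 and 108.5 (-1.01 ± 0.10). Reads of Pcna and its pseudogene Pcna-ps2, which reached 18.7 CPM, may be split between them.

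The helicase genes fell together: Mcm2 went from 61.5, 83.0 and 82.7 CPM to 16.7, 17.4 and 13.6 (-2.17 ± 0.13). Mcm5 went from 87.4, 127.2 and 108.2 CPM to 20.8, 23.0 and 15.49 (-2.37 ± 0.16), and the other 4 Mcm genes changed by -1.58 to -2.22. Of the licensing genes, Cdc6 went from 16.1, 22.2 and 19.8 CPM to 3.3, 3.71 and 2.95 (-2.47 ± 0.27) and Cdt1 from 21.5, 28.98 and 25.6 to 10.3, 11.1 and 10.6 (-1.18 ± 0.15). Both licensing genes were called, with no overlap between groups.

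Against DMSO, AZD5582 lowered the mitosis genes of GM cultures at 0.5 and 1 µM and most S phase genes with them. At 1 µM, 24 of 24 mitosis members and 12 of 16 S phase members were called lower and 2 S phase members (Tyms and Uhrf1) higher, where 28.2% of all genes tested were called lower and 26.9% higher. Counts at 0.5 µM were the same, 24 and 12 lower and 2 higher, beside 27.7% and 25.8% of all genes. The median log2 change was -1.84 and -2.11 over the mitosis members at 0.5 and 1 µM, and -0.72 and -0.78 over the S phase members, with the median of all genes at -0.025 and -0.005. At 0.1 µM, 3 members were called lower and 4 higher, beside 20.3% and 19.9% of all genes, and the medians were -0.05 (mitosis) and 0.03 (S phase). The 3 doses share their DMSO libraries, which are also those of the 24 h comparison, so these values are not independent of one another.

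**Figure D2:**
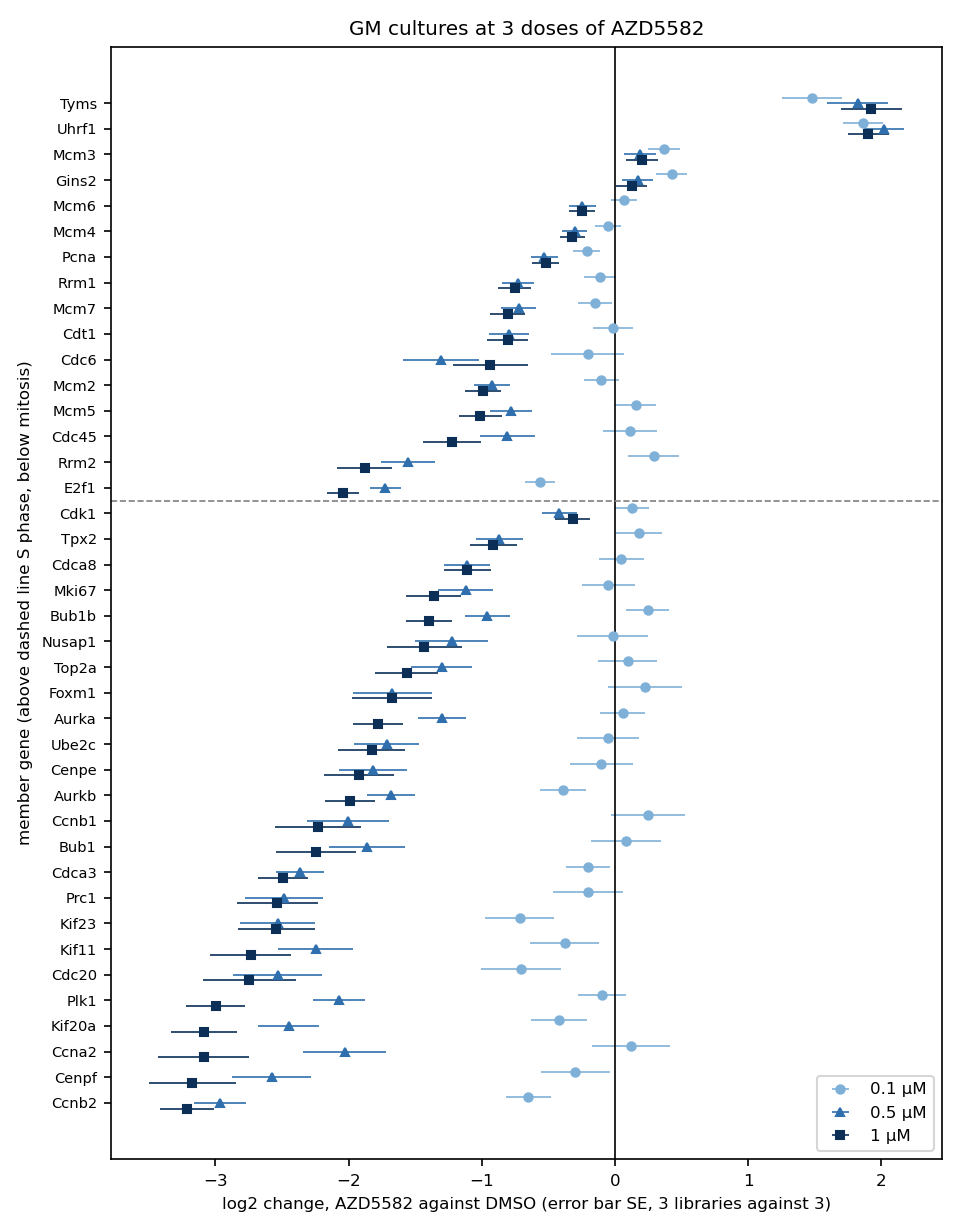
Log2 change ± SE of each member against DMSO in GM cultures at 0.1 µM (circles), 0.5 µM (triangles) and 1 µM (squares), 3 libraries against 3, ordered by the change at 1 µM within S phase (above the dashed line) and mitosis. The circles run from -0.71 (Kif23) to 1.48 (Tyms) and 1.86 (Uhrf1), and the squares of the mitosis genes run from -0.32 (Cdk1) to -3.22 (Ccnb2).

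Ccnb2, a B-type cyclin, fell most at 1 µM. It stood at 9.6, 12.1 and 10.4 CPM in DMSO, 4.99, 8.89 and 6.61 at 0.1 µM, then 1.43, 1.67 and 1.01 with 0.5 µM and 1.14, 1.11 and 1.16 with 1 µM. Every 0.1 µM library lay below every DMSO library, and every library at 0.5 and 1 µM below all of those. The log2 changes were -0.65 ± 0.17 (adjusted p = 0.00481), -2.96 ± 0.19 (6.67e-10) and then -3.22 ± 0.20 (3.54e-10). Ccnb2 and Kif23, a motor of the central spindle (-0.71 ± 0.26, adjusted p = 0.0376), were the mitosis members called at 0.1 µM. Kif23 lost its call there without DMSO library 1 (adjusted p = 0.0893) or 2 (0.116), without 0.1 µM library 1 (0.138) or 3 (0.128), with the compared groups only (0.116) or with all 24 libraries (0.374). The count of members called lower at 0.1 µM was 6 without 0.1 µM library 2 and 5 without DMSO library 3.

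The other cyclins and kinases were near their DMSO level at 0.1 µM and below it at 0.5 and 1 µM. Ccnb1 read 6.46, 12.1 and 10.6 CPM at 0.1 µM, 0.743, 3.13 and 1.9 with 0.5 µM and 1.48, 2.0 and 1.67 with 1 µM, log2 changes of 0.25 ± 0.28, -2.01 ± 0.31 and -2.23 ± 0.32. Plk1 read 4.97, 9.34 and 7.09 CPM, then 1.74, 1.8 and 1.9, then 0.777, 0.988 and 1.04 (-0.10 ± 0.18, -2.07 ± 0.20 and -3.00 ± 0.22). Both genes overlapped DMSO at 0.1 µM and lay wholly below it at the higher doses. Aurka changed by 0.06 ± 0.17, -1.30 ± 0.18 and -1.78 ± 0.19, with 1.32, 1.83 and 2.06 CPM in the 1 µM libraries. Ccna2, the cyclin of S phase and early mitosis, was at 0.933, 3.13 and 2.01 CPM at 1 µM (-3.09 ± 0.34).

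Cdk1 moved least of the mitosis members. It read 21.1, 22.8 and 16.7 CPM in DMSO, 18.4, 25.8 and 21.9 at 0.1 µM, 14.4, 15.9 and 15.1 with 0.5 µM, and 17.7, 16.2 and 14.2 with 1 µM. Its 1 µM libraries overlapped DMSO, and the change of -0.32 ± 0.13 (adjusted p = 0.0473) lost its call when DMSO library 1 (0.122) or 2 (0.209) was left out, without 1 µM library 2 (0.0731) or 3 (0.191), with median-of-ratios scaling (0.0577), with DESeq2 (0.0658), with the compared groups only (0.0855) or with all 24 libraries (0.327). At 0.5 µM its -0.42 ± 0.13 (adjusted p = 0.0118) lost its call in the absence of DMSO library 2 (0.0725) or with all 24 libraries (0.241). The other 23 mitosis members changed by -0.91 (Tpx2) to -3.22 at 1 µM.

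Among spindle and chromosome genes, Kif11 read 0.674, 1.52 and 1.83 CPM at 1 µM (-2.73 ± 0.30) and Bub1 1.11, 1.98 and 0.865 CPM (-2.24 ± 0.30). Cenpf, a kinetochore protein, was at 0.311, 0.892 and 0.57 CPM (-3.17 ± 0.32), the lowest share of its t0 level of any member at 1.2%. Top2a read 9.79, 13.6 and 10.8 CPM (-1.56 ± 0.23) and Mki67 17.2, 27.2 and 21.2 CPM (-1.36 ± 0.21). Foxm1 (-1.67 ± 0.30) and Ube2c (-1.83 ± 0.25) fell by similar amounts. In each of these 7 genes the highest 1 µM library lay below the lowest DMSO library. All 24 mitosis members were below 16% of t0 at 1 µM, from 1.2% to 15.1% (median 3.01%).

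Uhrf1 went against its class. It encodes the protein that reads hemimethylated DNA behind the replication fork and brings in the maintenance methyltransferase Dnmt1 (Uhrf1 is ENSMUSG00000001228 in the files). It stood at 70.5, 98.4 and 99.05 CPM at t0, at 20.4, 28.2 and 18.0 in DMSO, and at 76.4, 85.3 and 80.2 CPM with 0.1 µM, 81.4, 98.5 and 90.8 with 0.5 µM and 73.9, 86.9 and 85.8 with 1 µM. Every AZD5582 library lay above every DMSO library and within the range at t0. The log2 changes against DMSO were 1.86 ± 0.15, 2.02 ± 0.15 and 1.90 ± 0.15 (adjusted p = 2.98e-08, 4.06e-09 and 7.43e-09). Uhrf1 was called higher at all 3 doses in every alternative fit of these comparisons.

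Tyms, thymidylate synthase, moved the same way (ENSMUSG00000025747). It read 35.1, 41.0 and 41.2 CPM at t0, 10.2, 12.4 and 6.82 in DMSO, 31.98, 30.01 and 20.2 at 0.1 µM, 37.7, 39.3 and 27.4 with 0.5 µM and 45.8, 35 and 29.99 with 1 µM. The DMSO libraries lay below all 9 AZD5582 libraries. The changes were 1.48 ± 0.23, 1.82 ± 0.23 and 1.92 ± 0.23 (adjusted p = 7.04e-05, 5.02e-06 and 2.64e-06). Neither gene overlaps another in the annotation used.

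**Figure D3:**
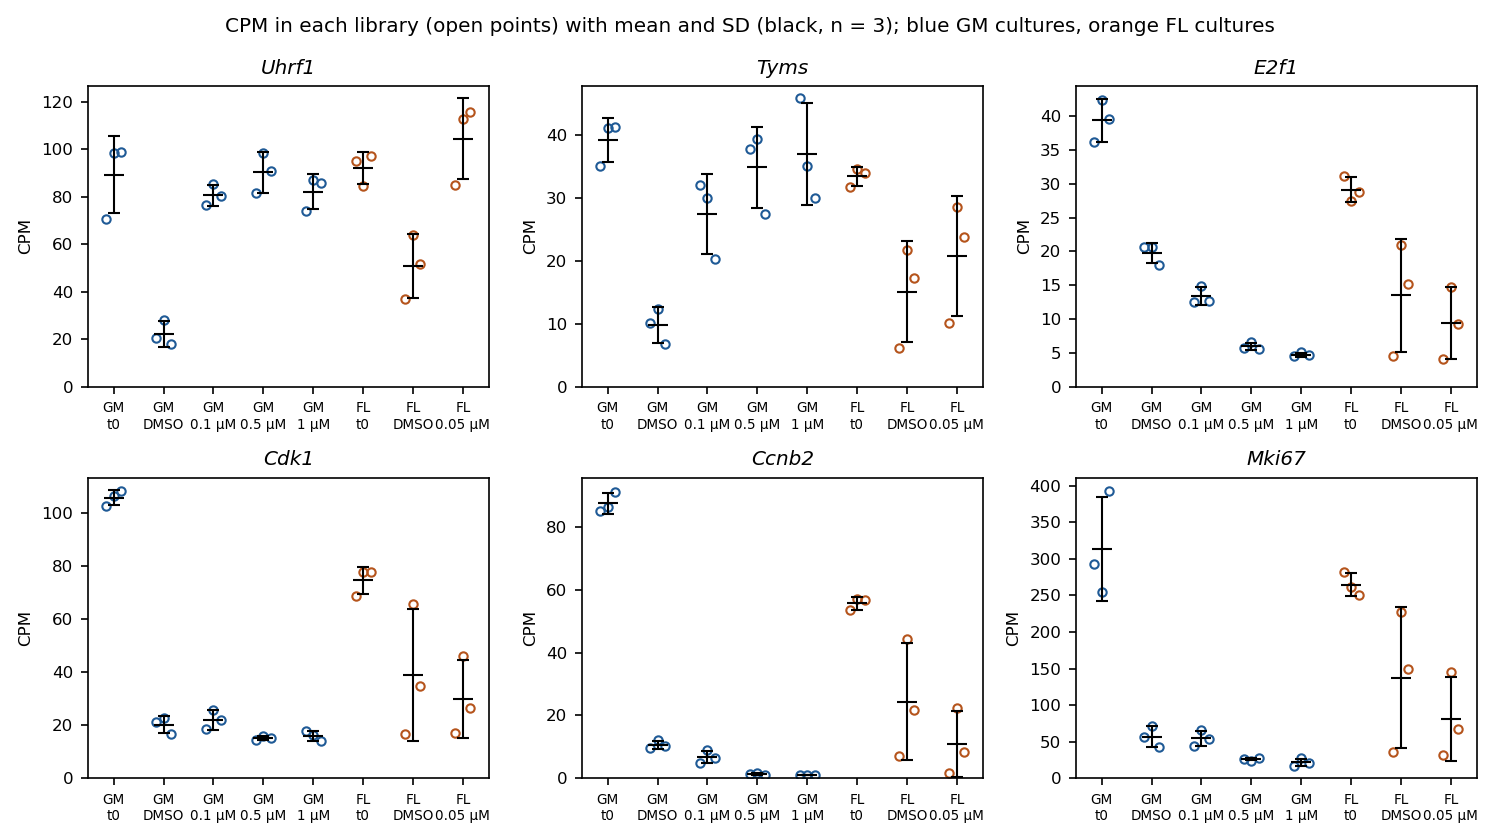
CPM of Uhrf1, Tyms, E2f1, Cdk1, Ccnb2 and Mki67 in all 24 libraries (open points, blue GM and orange FL cultures) with the mean and SD of each group of 3 (black), on linear axes from 0. Uhrf1 and Tyms are low in GM DMSO and higher in every AZD5582 library, whereas E2f1 steps down to 4.48 to 5.09 CPM at 1 µM, and the FL groups after 24 h spread widely, as for Mki67 at 36.4 to 228.0 CPM in DMSO.

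E2f1 fell at every dose. It read 20.6, 20.7 and 18.1 CPM in DMSO, 12.5, 14.9 and 12.7 at 0.1 µM, 5.74, 6.62 and 5.57 with 0.5 µM and 4.48, 5.09 and 4.68 with 1 µM. The 4 groups did not overlap. Its changes of -0.56 ± 0.11 (adjusted p = 0.000505), -1.72 ± 0.12 (8.81e-10) and -2.04 ± 0.12 (1.32e-10) made it the S phase member with the largest fall at 0.5 and 1 µM, and the only one called lower at 0.1 µM.

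Rrm2 read 19.4, 27.5 and 18.8 CPM at 0.1 µM, where it overlapped DMSO, 5.28, 7.67 and 5.29 with 0.5 µM and 3.55, 5.79 and 5.09 with 1 µM (0.29 ± 0.19, -1.55 ± 0.20 and -1.88 ± 0.21). Mcm2 read 7.57, 7.91 and 8.24 CPM at 1 µM (-0.99 ± 0.14) and Mcm5 8.68, 10.8 and 9.71 (-1.01 ± 0.16), both wholly below DMSO. The licensing genes Cdc6 (1.22, 2.46 and 1.47 CPM at 1 µM; -0.94 ± 0.28, adjusted p = 0.00895) and Cdt1 (5.52, 7.35 and 5.19 CPM; -0.81 ± 0.15) were lower too. Pcna changed by -0.52 ± 0.10 at 1 µM, with 82.6, 63.7 and 65.8 CPM. The smallest called fall was that of Mcm6 (-0.25 ± 0.10, adjusted p = 0.0401 at 1 µM and 0.0446 at 0.5 µM). At 1 µM Mcm6 was not called without any one of DMSO libraries 1 and 2 and 1 µM libraries 1 and 3 (adjusted p 0.0602 to 0.128), nor with median-of-ratios scaling (0.059), DESeq2 (0.0703), the compared groups only (0.0599) or all 24 libraries (0.243). At 0.5 µM the call of Mcm6 was lost without DMSO library 1 (0.0996) or 2 (0.131), without any of the 0.5 µM libraries (0.0651 to 0.152), with median-of-ratios scaling (0.0723), with DESeq2 (0.0931) or with all 24 libraries (0.277).

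The S phase members not called at 0.5 or 1 µM were Mcm3 and Gins2, a subunit of the replicative helicase. Both were called higher at 0.1 µM, by 0.37 ± 0.12 (adjusted p = 0.0196) and 0.42 ± 0.12 (0.00692), and stood at 0.20 ± 0.12 and 0.13 ± 0.12 at 1 µM. Mcm3 read 47.9, 47.3 and 38.6 CPM in DMSO, 54.2, 58.5 and 59.6 at 0.1 µM, and 57.1, 41.7 and 53.1 at 1 µM. Its call at 0.1 µM was lost without DMSO library 3 (0.0972) or without 0.1 µM library 2 (0.0623) or 3 (0.0687), and at 1 µM it was called without 1 µM library 2 (0.32, adjusted p = 0.0296). Gins2 read 7.07, 7.5 and 6.58 CPM in DMSO and 8.33, 10.6 and 9.43 at 0.1 µM, and overlaps the gene Gse1 on the other strand. In all, 12 of the 40 members overlap a coding gene.

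Between neighbouring doses, most of the decline lay between 0.1 and 0.5 µM. Of the members, 24 of 24 in mitosis and 11 of 16 in S phase were called lower at 0.5 than at 0.1 µM and none higher, where 8.47% of all genes were called lower and 2.98% higher. The median differences were -1.82 and -0.59. With all 24 libraries in one model, whose spread takes in the FL cultures, 0 of the 40 were called in this step, and at 0.1 µM against DMSO that model called 0 lower and 2 higher. Between 0.5 and 1 µM, 0 members were called in either direction, as were 0% of all genes tested lower and 0% higher. DESeq2 called 0 members in this step as well, and 6 were lower and 0 higher at an unadjusted p under 0.05. Ccna2 (-1.06 ± 0.35, adjusted p = 0.827) and Plk1 (-0.93 ± 0.24, adjusted p = 0.692) had the largest differences in this last step. In the order of the 5 GM groups, 39 of 40 members were highest at t0, the exception being Uhrf1 at 0.5 µM, whose libraries overlapped those at t0. The lowest group was 1 µM for 32 members, 0.5 µM for 4 and DMSO for 4 (Mcm3, Gins2, Tyms and Uhrf1). Libraries of 0.1 and 0.5 µM did not overlap in 38 of 40 members, those of DMSO and 0.1 µM in 7, and those of 0.5 and 1 µM in 5. The share of all genes without such overlap was not counted, and with 3 libraries a group some genes lie apart without a change. The counts of 38, 7 and 5 are therefore not read as a result about the members.

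In the GM cultures the neutrophil and macrophage sums fell from DMSO to 0.1 µM and were lower again at 1 µM. The stem cell and mast cell sums overlapped between the doses, and those at 1 µM overlapped DMSO. The 12 neutrophil and granulocyte precursor genes summed to 391.3 to 638.1 CPM in DMSO, 26.1 to 34.6 at 0.1 µM and 8.32 to 16.5 at 1 µM, where 10 of 12 were called lower and Elane was listed at 0. The 11 macrophage genes summed to 27670 to 33340 CPM in DMSO, 12040 to 13040 at 0.1 µM and 4300 to 5450 at 1 µM (10 of 11 lower). Lyz2 was the largest part of the macrophage sum at 1 µM, at a mean of 4286 CPM. Stem and progenitor genes summed to 137.3 to 214.1 CPM in DMSO, 178.7 to 227.1 at 0.1 µM, 185.9 to 274.1 at 0.5 µM and 176.2 to 270.5 at 1 µM (3 of 7 tested higher, 1 lower). Mast cell and basophil genes summed to 94.3 to 148.7, 130.2 to 168.2, 154.1 to 203.4 and 133.8 to 208.0 CPM (3 of 8 higher at 1 µM). Of all genes tested at 1 µM, 26.9% were called higher and 28.2% lower. In lists this short, 3 genes higher cannot be told from that share. The 2 tested of the 7 lymphocyte and erythroid genes were higher at 1 µM, at a summed level for the list of 1.85 to 3.06 CPM in DMSO and 8.22 to 9.67. The mitosis members called lower against DMSO were 2 of 24 at 0.1 µM and 24 of 24 at 1 µM. The part of these other cells in the results was not tested.

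In FL cultures, 24 h in DMSO lowered the same genes in each culture, by amounts that differed between cultures. The summed level of the mitosis members was 1905, 1674 and 1771 CPM at t0 in cultures 91, 94 and 95, and 192.2, 1164 and 764.1 CPM after 24 h in DMSO. The S phase members summed to 1271, 1184 and 1247 CPM at t0 and 272.2, 812.5 and 541.1 CPM in DMSO. All 40 members were lower in DMSO than at t0 in 3 of 3 cultures, with no overlap. Neither trait was counted over all genes. The median log2 change of the mitosis members was -3.42 in culture 91, -0.64 in culture 94 and -1.26 in culture 95.

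**Figure D4:**
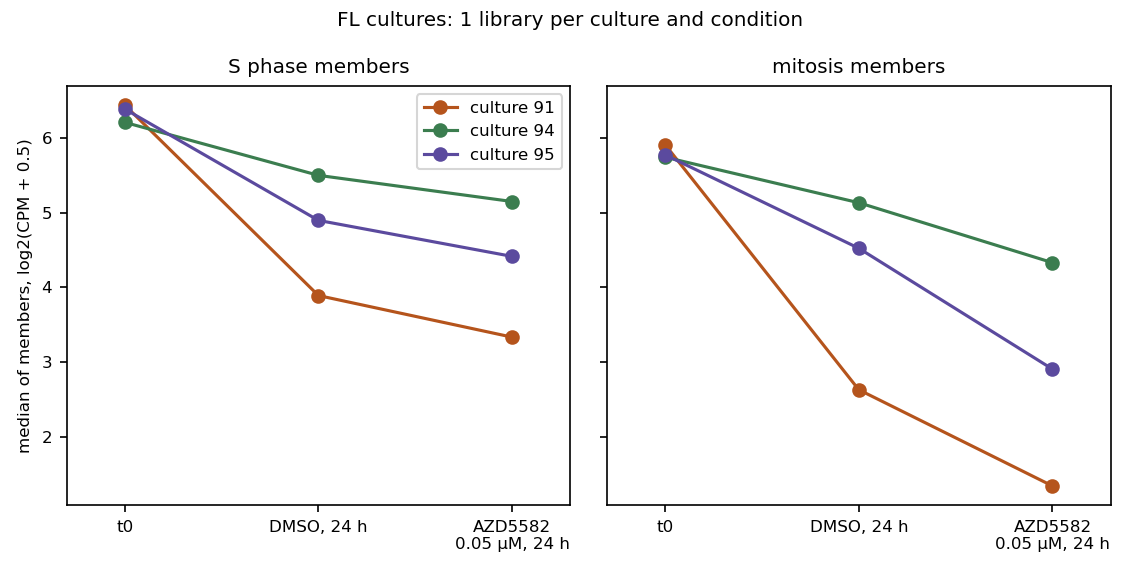
Median over the S phase members (left) and the mitosis members (right) of log2(CPM + 0.5) in each FL library, with lines joining the libraries of culture 91, 94 and 95 at t0, after 24 h in DMSO and after 24 h with 0.05 µM AZD5582. The 3 cultures start together (5.75 to 5.92 for mitosis) and lie apart after 24 h (2.63, 5.14 and 4.53 in DMSO), and all lines fall at both steps.

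Without the culture as a block, 3 of 16 S phase members were called lower and 0 of 24 mitosis members, beside 5.18% of all 15961 genes tested lower and 4.96% higher. They were Cdc6 (-1.67 ± 0.34, adjusted p = 0.0254), Cdt1 (-1.61 ± 0.39, 0.0389) and Uhrf1 (-0.84 ± 0.21, 0.0393). At an unadjusted p under 0.05, 14 S phase and 4 mitosis members were lower, and DESeq2 called 10 and 3. With the culture number as a block, 13 S phase and 6 mitosis members were called lower, beside 10.2% of all genes lower and 9.23% higher, with medians of -1.44 and -1.94 (-0.88 and -1.03 without culture 91). The mitosis members called were Cdk1, Aurka, Aurkb, Bub1b, Kif20a and Top2a. Without culture 91 the unblocked count was 4 and the blocked count 18. Cdc6 was then not called without the block (-1.40, adjusted p = 0.0537), whereas Cdt1 (-1.20, 0.0313), Uhrf1 (-0.66, 0.0374) and Bub1b (-1.43, 0.0178) were. The unblocked count of 3 was 0 without any one of the t0 libraries 91, 94 or 95 or the DMSO library 95, and 7 without DMSO library 94.

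Cdc6 read 23.4, 17.6 and 20.4 CPM at t0 and 4.5, 8.66 and 5.89 CPM in DMSO in cultures 91, 94 and 95. Mki67 read 281.8, 261.6 and 250.8 CPM at t0 and 36.4, 228.0 and 148.9 in DMSO (-0.94 ± 0.65, adjusted p = 0.366, and -1.34 ± 0.51, adjusted p = 0.0996 with the block). Rrm2 read 161.0, 178.5 and 164.8 CPM at t0 and 14.5, 140.3 and 67.2 in DMSO. Bub1b, a spindle checkpoint kinase and the mitosis member with the largest unblocked change, read 61.0, 35.9 and 44.3 CPM at t0 and 5.22, 14.8 and 15.3 in DMSO (-1.99 ± 0.56, adjusted p = 0.0569). In Cdc6, Mki67 and Rrm2 culture 91 had the lowest DMSO value and culture 94 the highest. Neutrophil and granulocyte precursor genes had the same order in DMSO. They summed to 2040, 10310 and 4137 CPM in cultures 91, 94 and 95 (1314, 4450 and 2138 at t0). The stem and progenitor sum was instead highest in culture 91, at 628.6, 414.6 and 363.8 CPM (120.5, 235.7 and 174.8 at t0). By group means in DMSO, Kit (241.3 CPM) and Sox4 (102.1) were its largest parts, before Gata2 (55.02), Myb (39.96) and Cd34 (28.36). Without the block, Kit and Sox4 were called higher over 24 h, and Gata2, Myb and Cd34 were not. Kit and Gata2 also count in the mast cell list. The highest sum in culture 91 is thus not a reading of the whole list. Mast cell and basophil genes summed to 592.9, 1431 and 785.7 CPM in DMSO (204.5, 823.3 and 387.8 at t0), and macrophage genes to 886.1, 1273 and 1550 (958.4, 818.3 and 987.3 at t0). The part of these cells in the 24 h change and its spread was not tested.

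With 0.05 µM AZD5582 the mitosis members of FL cultures were lower than in DMSO in most pairs, without passing the test. Their summed level was 115.2, 705.3 and 294.6 CPM in cultures 91, 94 and 95, against 192.2, 1164 and 764.1 CPM in DMSO. Of the 24, 22 were lower in 3 of 3 cultures, and the share of all genes lower in 3 of 3 was not counted. The median log2 change of the 24 was -1.18, -0.68 and -1.42 in cultures 91, 94 and 95. Kif23 had the largest estimate (-1.73 ± 0.81, adjusted p = 0.318), at 5.9, 37.3 and 32.3 CPM in DMSO and 1.65, 15.4 and 5.05 with AZD5582. The median log2 change in edgeR's fit was -0.97 for mitosis and -0.42 for S phase. None of the 40 members was called lower by edgeR (0; 0 at an unadjusted p under 0.05) or by DESeq2 (0, and 2 at an unadjusted p under 0.05), beside 1.28% of all genes called lower and 1.62% higher. With the block, 0 members were called lower as well, beside 3.19% of all genes lower and 3.69% higher. Without culture 91, 2 mitosis members were called lower (Bub1b, -1.03, and Cenpf, -1.34), and 7 with the block. Neutrophil and granulocyte precursor genes summed to 189.3, 3746 and 389.5 CPM with AZD5582, below DMSO in each culture. Stem and progenitor genes summed to 290.3, 322.3 and 243.6 CPM and macrophage genes to 335.6, 729.5 and 614.4, also below DMSO in each culture, and mast cell and basophil genes to 296.4, 1477 and 768.2. The part of these cells in the result was not tested.

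Uhrf1 was the member called in FL cultures with AZD5582, and it was higher. It read 94.9, 84.6 and 97.3 CPM at t0, 37.1, 64.0 and 51.9 in DMSO and 85.1, 112.7 and 115.8 with 0.05 µM in cultures 91, 94 and 95. The 3 AZD5582 libraries lay above the 3 DMSO libraries, and the log2 change was 1.05 ± 0.21 (adjusted p = 0.0371, and 0.019 with the block). It was called without culture 91 (1.06, adjusted p = 0.00541), and not called without DMSO library 95 (0.143), AZD5582 library 94 (0.0614) or 95 (0.146), or with the compared groups only (0.14). Tyms read 31.7, 34.6 and 33.9 CPM at t0, 6.21, 21.8 and 17.3 in DMSO and 10.1, 28.5 and 23.8 with AZD5582. It was higher with AZD5582 in 3 of 3 cultures and was not called (0.49 ± 0.46, adjusted p = 0.639); with the block and without culture 91 it was called at 0.50. As the doses differ (0.05 µM in FL cultures, 0.1 to 1 µM in GM cultures), no comparison between the culture types was made of the response to AZD5582.

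Most of these genes read lower in FL than in GM cultures at t0, without passing the test. The mitosis members summed to 1674 to 1905 CPM in FL and 2208 to 2663 in GM libraries. For the S phase members the sums were 1184 to 1271 and 1373 to 1662 CPM. The test uses the spread of all 24 libraries, which takes in the FL cultures after 24 h. Of the 40 members 35 had a lower estimate in FL than in GM cultures, with a median log2 difference of -0.40 for mitosis and -0.28 for S phase, beside 0.093 over all genes. None was called (0 of 40; 1 lower at an unadjusted p under 0.05; 0 by DESeq2), beside 17.5% of all 17262 genes lower and 23.4% higher. Without culture 91, 8 were called lower, from -0.43 (Mcm3) to -0.81 (Cenpf), with the share of all genes called in that fit not counted. This comparison also takes in FLT3L, the age of the culture (day 8 or 16) and the separate starts of the cultures, which cannot be told apart.

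The 24 h fall in DMSO was smaller in FL than in GM cultures for 38 of 40 members by their estimates. How many of these differences were called varied with the libraries left out. The difference (FL change minus GM change) had a median of 1.42 over the mitosis members and 0.73 over the S phase members, beside -0.117 over all genes. With all libraries, Uhrf1 alone was called (1.08 ± 0.26, adjusted p = 0.0178), beside 0.881% of all genes higher and 3.96% lower; 9 mitosis and 2 S phase members were higher at an unadjusted p under 0.05, and DESeq2 called 2 members. With the block within culture type, Uhrf1 (1.05 ± 0.20) and Cdk1 (1.16 ± 0.30, adjusted p = 0.0204) were called, beside 2.14% of all genes higher and 7.62% lower. Without culture 91, 31 of 40 members were called higher (21 mitosis and 10 S phase), and 36 with the block. Whether the calls over all genes rose likewise was not counted. Leaving out only the DMSO library of culture 91 gave 11, and leaving out GM DMSO library 1 or 3, GM t0 library 2 or 3 or FL DMSO library 94 gave 0. Cdk1 went from 68.9, 77.8 and 77.7 CPM to 16.6, 65.6 and 34.7 in the FL cultures, so that in DMSO culture 91 was below the 3 GM libraries and cultures 94 and 95 were above them.

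Other genes of replication, a list of 36 that excludes the members, went both ways under AZD5582. Over 24 h in DMSO, 35 of 36 fell and Gins3, a partner of Gins2 in its complex, rose (2.08 ± 0.11), beside 20.3% of all genes lower and 27.2% higher. At 1 µM, 6 were called higher and 16 lower (median -0.36), beside 26.9% of all genes higher and 28.2% lower. The 3 lower with the smallest p were Clspn, a checkpoint adaptor (-2.66 ± 0.30), E2f2, an E2F activator (-3.11 ± 0.33), and Mcm10 (-2.32 ± 0.27). The 3 higher were Dut, the dUTPase that supplies the substrate of thymidylate synthase (2.26 ± 0.16; mean 18.95 CPM in DMSO and 89.3 at 1 µM), Gins3 (1.08 ± 0.10) and Cdc7, the kinase that fires origins (1.33 ± 0.17). Dnmt1, the methyltransferase that Uhrf1 recruits, singled out after its values were seen, was also higher at 1 µM (0.72 ± 0.16, adjusted p = 0.00119; 55.4 ± 6.57 and 90.4 ± 18.1 CPM, SD, n = 3) and in FL cultures with the block (1.03 ± 0.15, adjusted p = 0.0127). In FL cultures with AZD5582, 0 of the 36 were called without the block (3 at an unadjusted p under 0.05) and 2 with it, Dnmt1 and Dut (1.04 ± 0.20), both higher. Both were also called without the block once culture 91 was left out, Dnmt1 at 0.985 (adjusted p = 0.0175) and Dut at 0.879 (0.0256). With the block and without culture 91, 4 of the 36 were higher and 6 lower.

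Of 36 other mitosis genes, 35 fell over 24 h in GM cultures (median -2.76), among them the kinetochore genes Spc25 (-3.08 ± 0.18) and Ndc80 (-2.81 ± 0.17). The exception was Pttg1, the securin gene (-0.08 ± 0.13, adjusted p = 0.657). At 1 µM, 33 were lower and 1 higher (median -1.60), beside the same shares of all genes. Cdc25b, a phosphatase that activates Cdk1 (-2.36 ± 0.15), Cep55, an abscission protein (-2.57 ± 0.23), and Incenp, the chromosomal passenger scaffold (-1.45 ± 0.13), had the smallest p. Melk, a kinase of proliferating cells, rose at each dose (1.18, 1.13 and 1.13, SE 0.14 each), from 8.94 ± 2.39 CPM in DMSO to 20.3 ± 0.225, 19.7 ± 0.938 and 19.5 ± 0.925 (SD, n = 3), after falling from 38.4 ± 3.46 at t0. Cenpa, the centromeric histone, was the list's single gene called in FL cultures with AZD5582 (-1.55 ± 0.33, adjusted p = 0.0473; -1.21 and 0.0193 without culture 91). With the block and without culture 91, 13 of the 36 were called lower there.

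Genes that drive G1 fell over 24 h in GM cultures, and genes that restrain the cycle went both ways. Of 13 G1 drivers, 12 fell (median -1.22), beside 20.3% of all genes called lower and 27.2% higher, with Myc going from 63.7 ± 6.76 to 19.9 ± 3.74 CPM (SD, n = 3; -1.60 ± 0.13) and the E cyclin genes Ccne1 (-2.48 ± 0.18) and Ccne2 (-2.82 ± 0.28), which also stand in the replication list, lower. Of 24 brake genes tested, 10 rose and 8 fell (median 0.20), shares of the list that both lie above these: the stress gene Gadd45b (3.68 ± 0.13), the Myc antagonist Mxd1 (2.53 ± 0.13) and the Cdk4 inhibitor gene Cdkn2b (3.32 ± 0.17) rose, and Cdkn2c, another such inhibitor (-1.60 ± 0.16), and Lin9, a MuvB subunit (-1.30 ± 0.15), fell.

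At 1 µM, 2 of the 13 G1 drivers were higher and 7 lower (median -0.38), beside 26.9% of all genes higher and 28.2% lower. Myc (-1.51 ± 0.13) and the cyclin gene Ccnd3 (-1.27 ± 0.13) were lower, at 6.91 ± 0.746 and 35.5 ± 7.57 CPM, whereas Ccnd2, a D-type cyclin, rose (2.74 ± 0.61, adjusted p = 0.0025) from 51.0 ± 16.5 to 335.0 ± 179.8 CPM and Cdk6 rose by 0.46 ± 0.11. Of the 24 brakes, 11 were higher and 6 lower (median 0.14), the latter near the share of all genes. E2f5, a repressor E2F, rose by 1.84 ± 0.15, Gadd45b by 1.34 ± 0.11 and Cdkn1a, which encodes the Cdk inhibitor p21, by 1.31 ± 0.11, from 403.6 ± 31.2 to 989.6 ± 96.7 CPM. Mxd4 (-1.66 ± 0.10), Gadd45a (-0.80 ± 0.12) and Cdkn2d (-1.07 ± 0.18) fell. At 0.1 µM, Cdkn1a (0.79 ± 0.11), E2f5 (1.13 ± 0.14) and Gadd45b (1.01 ± 0.11) were called higher and Myc (-0.93 ± 0.13) and Ccnd3 (-1.14 ± 0.13) lower. At that dose 19.9% of all genes tested were called higher and 20.3% lower, and the counts of these lists are not given. Whether these genes bear on the later fall of the mitosis members was not tested.

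**Figure D5:**
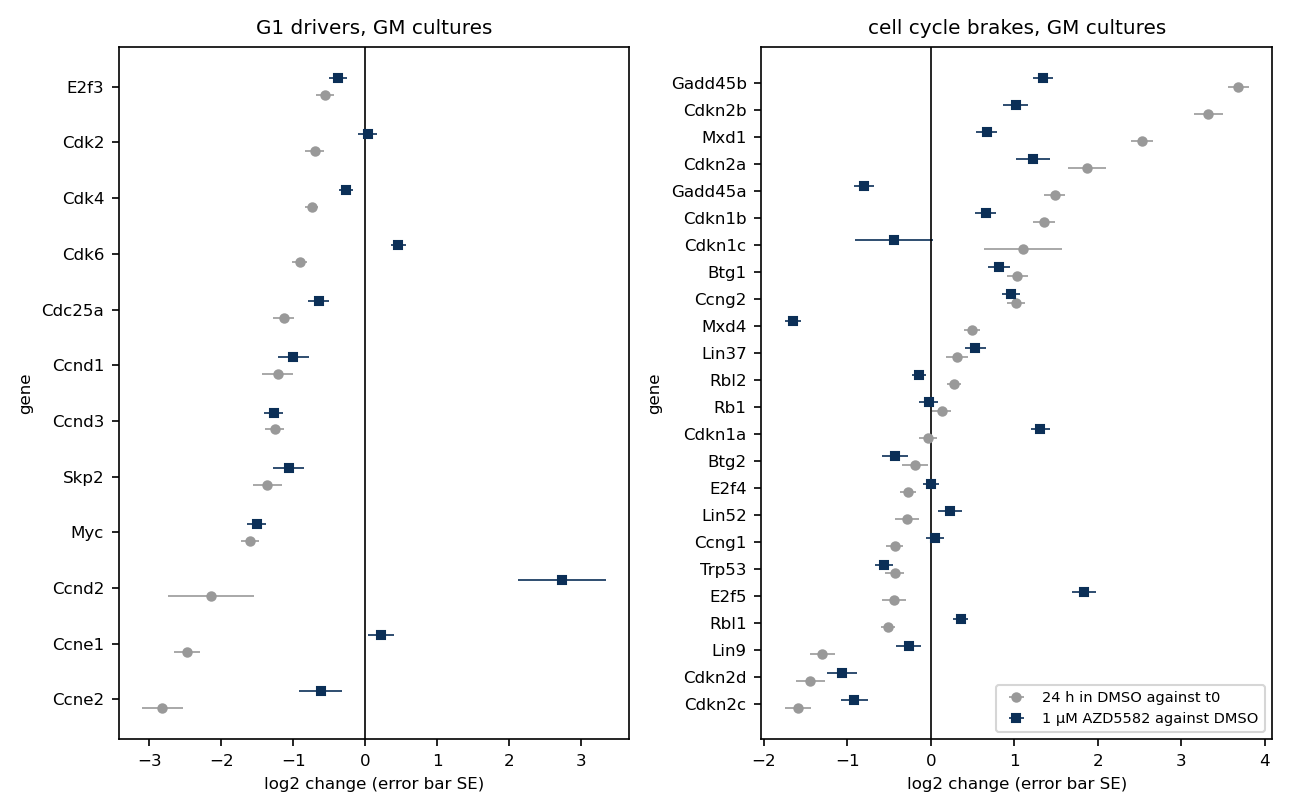
Log2 change ± SE in GM cultures of 12 of the 13 G1 drivers (left; Mycn, at a mean of 0.0168 CPM at t0, is not drawn) and 24 brake genes (right) over 24 h in DMSO (grey circles) and with 1 µM AZD5582 against DMSO (dark squares), ordered by the 24 h change. Myc and Ccnd3 lie left of 0 in both comparisons, Ccnd2 changes side (-2.14 over 24 h and 2.74 with AZD5582), and Gadd45b, Cdkn2b and Mxd1 lie right of 0 in both.

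In FL cultures, 2 of the 13 G1 drivers fell over 24 h in DMSO without the block (4 with it), among them Ccnd1 from 453.7 ± 123 to 78.5 ± 38.8 CPM (-2.52 ± 0.40, adjusted p = 0.0161; -1.97 and 0.00601 without culture 91). Of the 24 brakes, 4 rose and 2 fell without the block, beside 4.96% of all genes higher and 5.18% lower, and 7 and 3 with it, beside 9.23% and 10.2%. Without culture 91 the unblocked counts were 4 G1 drivers lower, 2 brakes higher and 2 lower. Mxd1 (1.51 ± 0.32), Gadd45b (1.502 ± 0.36) and Cdkn1b, which encodes p27 (0.87 ± 0.22), rose, and Trp53, which encodes p53 (-0.82 ± 0.13), and E2f5 (-0.85 ± 0.18) fell. Without culture 91, Mxd1 stood at 0.933 (adjusted p = 0.0199), Gadd45b at 0.913 (0.0393), Trp53 at -0.79 (0.0171) and E2f5 at -0.66 (0.0397), and Cdkn1b lost its call (0.728, 0.0514). With 0.05 µM AZD5582, Ccng2, an atypical cyclin of arrested cells, was the brake called without the block (1.17 ± 0.18, adjusted p = 0.0208; 1.39 and 0.00375 without culture 91), beside 1.62% of all genes higher, and 0 of 13 G1 drivers were called (0 at an unadjusted p under 0.05). Without culture 91, Ccnd2 (1.31) was called higher among the G1 drivers, and 4 brakes were higher and 2 lower.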

How the data were processed

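The 24 libraries are messenger RNA of bone marrow-derived dendritic cells (TruSeq Stranded mRNA, NovaSeq6000, per the labels' protocols). The authors deposited unnormalized read counts for each gene, which were used here; STAR 2.7.3a, HTSeq 0.12.4, DESeq2 1.30.1 and GRCm39 are named in the submitters' processing notes. No source used here gives the strand setting of the counting, so 12 members that overlap a coding gene are uncertain. Lines that name no gene, 10.98% to 16.4% of reads per library, were left out. Symbols came by identifier from GENCODE M21, which named 52081 of 55414 identifiers and 205 of the 206 symbols listed.

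Groups were compared with edgeR 4.0.16 (R 4.3.3, limma 3.58.1): TMM scaling, filterByExpr and a robust quasi-likelihood fit of group means, in 15 GM, 9 FL or all 24 libraries (16152, 15961 and 17262 genes; biological coefficient of variation 0.146, 0.390 and 0.272). Adjusted p-values are Benjamini-Hochberg over all genes of a model, and a gene was called under 0.05. Each ± after a log2 change is a standard error. CPM was scaled by TMM over all 24 libraries. Alternatives were median-of-ratios scaling, no filter, DESeq2 1.42.0, other sample sets, each library left out, and the replicate number as a block. In FL cultures the number names the culture: deviations of same-numbered libraries correlated at 0.121 to 0.643 in 9 of 9 pairs, so blocked values are given. The fit was tested on simulated counts with known changes.

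All 40 members could be named. Values of each library are given for genes of a fixed panel, the largest changes in each class and those against their class; from other lists, up to 3 genes a direction with the smallest p in a comparison. Dnmt1 at 1 µM, Pttg1, and the second Uhrf1 window were chosen after their values were seen. The members and lists were chosen with earlier results of these data known.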

Additional observations from a re-analysis of the deposited data

Results flagged for a closer look

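The 24 h change in DMSO differed between FL and GM cultures, by the interaction test of edgeR's quasi-likelihood fit, in 5 of the 146 genes tested in the cell cycle lists (4 higher, 1 lower), beside 0.881% of all genes higher and 3.96% lower. The FL change minus the GM change was 1.08 for Uhrf1 (adjusted p = 0.0178), 1.32 for the centromeric histone gene Cenpa (0.0273), 1.03 for Melk (0.0368), 1.13 for the Cdk inhibitor gene Cdkn2c (0.0375) and -2.2 for Gadd45b (0.000823), all on the log2 scale. With the replicate number as a block the adjusted p was 0.00289, 0.0118, 0.0259, 0.00963 and 0.000179, and 15 of the 146 genes were called (9 higher, 6 lower), beside 2.14% and 7.62% of all genes. Without culture 91, chosen after seeing the data, 79 were higher and 4 lower without the block, with the share of all genes not counted. When each library was left out in turn, the adjusted p of Gadd45b ran from 5.41e-06 to 0.00391, that of Uhrf1 from 0.00211 to 0.056, that of Cenpa from 0.0239 to 0.0715, that of Melk from 0.00233 to 0.104 and that of Cdkn2c from 0.00243 to 0.112, so that Gadd45b alone kept its call each time.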

How the results depend on the processing

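Over 24 h in GM cultures 40 to 40 members were called lower when each library was left out, at 0.5 µM 34 to 36 lower and 2 higher, at 1 µM 34 to 36 lower and 2 to 3 higher. At 0.1 µM the 3 lower calls were 7 without the filter and 0 with all 24 libraries (2 to 6 leaving out libraries), and the 4 higher calls were 2 with all 24 libraries (3 to 4). From 0.1 to 0.5 µM the 35 lower calls were 0 with all 24 libraries (30 to 33), and from 0.5 to 1 µM 0 became 3 without the filter. With the replicate number as a block, 6 were lower at 0.1 µM in GM cultures, where 3 of 30 same-number pairs correlated above 0.1 and 27 of 30 correlated best with their own number. Over 24 h in FL cultures the 3 lower calls were 19 with the block, 28 with all 24 libraries, 13 with DESeq2, 1 with the compared groups only and 0 to 7 leaving out libraries, and 18 with the block without culture 91. With 0.05 µM, 0 lower became 1 with all 24 libraries, 2 without culture 91 and 7 with the block too, and 1 higher became 0 with the compared groups only, 0 to 1 leaving out libraries and 2 with the block without culture 91. At t0, 0 lower became 1 without the AZD5582 groups and 8 without culture 91. For the 24 h difference, 1 higher became 2 with the block, 2 with DESeq2, 0 without the AZD5582 groups, 0 to 11 leaving out libraries, 31 without culture 91 and 36 with the block too. The settings without culture 91 were chosen after seeing the data. The block changed no other count of the 40 members by over 1.5 times. Among the pathway lists over 24 h in FL cultures it moved the lower calls from 6 to 17 in other replication, 3 to 7 in other mitosis and 2 to 4 in G1 drivers, and the higher calls of brakes from 4 to 7. The cause of these changes was not tested.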

Other observations

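At t0, genes outside the S phase and mitosis sets differed between the culture types. Of 24 cell cycle brakes, 10 were higher in FL than in GM cultures and 0 lower, beside 23.4% of all genes higher and 17.5% lower (edgeR; 12 at an unadjusted p under 0.05 in either direction), with Gadd45b at 2.79 ± 0.26, E2f5 at 1.40 ± 0.15 and Mxd1 at 2.04 ± 0.23 (log2 ± SE). Of 13 G1 drivers, 3 were higher and 0 lower, about the share of all genes: Cdk2 (1.41 ± 0.17), Ccnd1 (1.48 ± 0.31) and Mycn, at a mean of 0.607 CPM at FL t0 and 0.0168 CPM at GM t0, a level too low for a fold change. Of 36 other replication genes, Gins3 was higher by 1.95 ± 0.25 and Gins4 lower (-0.42 ± 0.12, adjusted p = 0.00777). Of 36 other mitosis genes, 0 were higher and Cdc25b was lower (-1.30 ± 0.43, adjusted p = 0.0212). Without culture 91, 12 brakes were higher and 1 lower, and the G1 driver counts were 3 and 0, with the share of all genes not counted.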
